A study of Danio rerio with 4 samples.

Results

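The loci of nppc and lepb, 2 genes that encode secreted ligands, were examined in H3K27ac CUT&Tag peak lists of zebrafish nonCMs (all cardiac cells other than cardiomyocytes) from the injury area of the heart. A locus was taken as the open chromatin region (OCR) that a supplementary table of the study assigns to the gene, with 100 kb of flanking sequence on each side, and its members were the H3K27ac peaks that overlapped this window by at least 1 bp. The legend of that table describes its entries as OCRs active in Epi/FBs (epicardial cells and fibroblasts) that coincide with candidate tissue regeneration enhancer elements. The nppc OCR lies at 38578975 to 38579190 of chromosome 22 and is 216 bp long, and the lepb OCR lies at 19008600 to 19008841 of chromosome 4 and is 242 bp long. The table names no genome build, and the positions were taken as GRCz11, the build of the peak lists. The windows held 96 of the 137121 peaks in all 4 lists, 49 of them at nppc and 47 at lepb.

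CUT&Tag directs a transposase to antibody-bound chromatin, so that reads pile up where the histone mark lies. There were 2 Epi/FB:dnAP-1 libraries and 2 control libraries, all from adult hearts 7 days after resection of the ventricular apex. Epi/FB:dnAP-1 fish (FB:dnAP-1 in the labels) carried a tcf21:Cre-ERT2 driver together with a ubb transgene that expresses Flag-tagged dnAP-1 once Cre removes a loxP-flanked dsRed cassette, and received 4-HT by intraperitoneal injection before the resection, so that dominant-negative AP-1 was induced in Epi/FBs. For controls, the methods describe double transgenic adults given ethanol vehicle, whereas the labels give the genotype CTRL and carry a WT tag in the titles; which applies to these 2 libraries is not given in the sources used here. The tcf21 driver acts in Epi/FBs, whereas each library was made from all nonCMs, endocardial cells and immune cells included. A lower signal from fewer cells of a type and one from less acetylation per cell cannot be told apart in such bulk libraries. The transgene and the markers of the cell types were not measured, since the lists hold peaks and no expression.

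AP-1 is a transcription factor complex of Fos and Jun family proteins that binds enhancers, and its dominant-negative form blocks this activity. H3K27ac, the acetylation of a lysine in the tail of histone H3, marks active enhancers and promoters. The gene nppc encodes C-type natriuretic peptide, a secreted peptide that raises cGMP through guanylyl cyclase receptors, and in the regenerating zebrafish heart it marks activated endocardial cells. The gene lepb encodes a leptin, a secreted hormone that signals through the leptin receptor and JAK-STAT proteins. A lepb-linked enhancer drives expression in endocardial cells of injured zebrafish hearts, and the study used it as a reporter of their activation. Whether H3K27ac at these 2 loci differs when AP-1 is blocked in Epi/FBs is the question the comparison addresses.

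At lepb, less of the window lay in peaks in both Epi/FB:dnAP-1 libraries than in either control library. The covered share was 15.9% and 13.3% in Epi/FB:dnAP-1 libraries, against 22.5% and 20.9% in control libraries. At nppc the groups overlapped, with 20.5% and 17.1% covered in Epi/FB:dnAP-1 libraries, against 21.5% and 15.3% in control libraries. The nppc OCR itself lay under an H3K27ac peak in all 4 lists. The lepb OCR lay under a peak in 1 list, that of control replicate 1. With 2 libraries a group, the two-sided exact permutation test cannot give a p below 0.333, so no comparison of these loci could pass 0.05.

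The lists were similar in size, with 38429 and 32978 peaks in Epi/FB:dnAP-1 libraries, against 32638 and 33076 in control libraries, and they covered between 102 and 118 Mb. By total signal, the weakest peaks listed reached 7490 and 9203 in Epi/FB:dnAP-1 libraries, against 12993 and 10480 in control libraries. A peak of the same total signal could therefore be listed in one library and fall below the lowest value of another. Read totals are unknown from the lists, so no counting interval was given, and the labels do not say whether the replicates came from separate groups of fish.

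**Figure D1:**
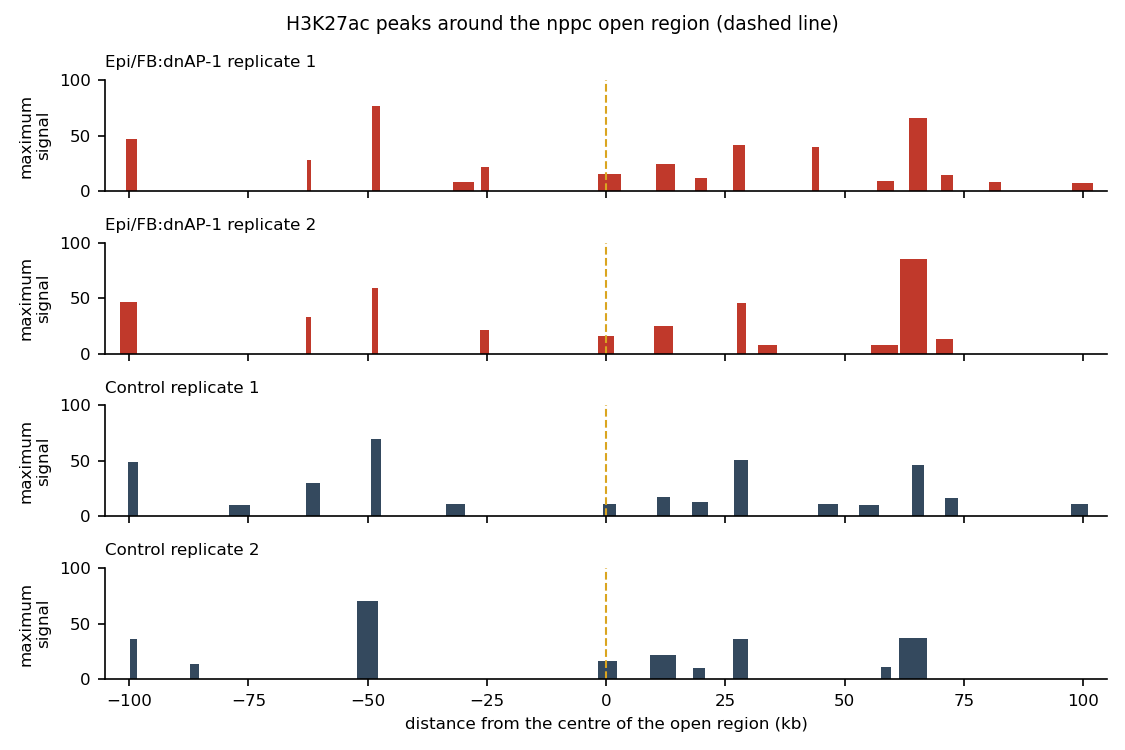
H3K27ac peaks in the nppc window by library, with the distance from the centre of the OCR (kb) on the x axis and the maximum signal of each peak (scaled coverage) as its height, Epi/FB:dnAP-1 in red above control in dark blue. A low peak sits on the dashed line of the OCR in all 4 libraries, and a peak 47.1 kb below it is among the tallest of each library.

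The nppc OCR was covered over its whole 216 bp by 1 peak in each library. In Epi/FB:dnAP-1 replicate 1 this peak ran from 38577436 to 38582267 (4832 bp), and in Epi/FB:dnAP-1 replicate 2 from 38577376 to 38580795 (3420 bp). In control replicate 1 it ran from 38578376 to 38581041 (2666 bp), and in control replicate 2 from 38577361 to 38581299 (3939 bp). The peak was thus present in both groups with lengths that overlapped between them.

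The maximum signal, the highest scaled coverage within the peak, was 15.6 and 15.6 in Epi/FB:dnAP-1 libraries, against 11.3 and 16.6 in control libraries. By total signal, the coverage summed over its bases, the peak stood at the 74.5th and 38.5th percentiles of its Epi/FB:dnAP-1 lists, against the 29.6th and 66.0th percentiles of its control lists. A percentile here is the share of the peaks of a list with the same or a lower total. Neither measure separated the groups. The maxima were below the median maximum of each list, which was 23.1 and 25.2 in Epi/FB:dnAP-1 lists, against 20.2 and 19.3 in control lists. The stretch of maximum coverage lay on the lower side of the OCR in Epi/FB:dnAP-1 libraries, 90 and 210 bp from it, and on the higher side in control libraries, 900 and 900 bp from it. How often the position of the maximum separates the groups at other sites was not computed. The position was read from a peak with low maxima, and no shift of the mark across the OCR was concluded from it.

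Over the whole nppc window there were 15 and 11 peaks in Epi/FB:dnAP-1 libraries, against 14 and 9 in control libraries. They covered 41.0 and 34.3 kb in Epi/FB:dnAP-1 libraries, against 43.0 and 30.54 kb in control libraries. Replicate 1 was the higher of the pair in both groups, and the groups overlapped in both measures. The mean covered share was 18.8 ± 2.35% in Epi/FB:dnAP-1 libraries and 18.4 ± 4.40% in control libraries (SD, n = 2 each), a difference of 0.44 percentage points that was smaller than the spread between replicates (two-sided exact permutation test, p = 1).

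Summed over the nppc peaks, total signal came to 245695 and 225245 in Epi/FB:dnAP-1 libraries, against 277601 and 199376 in control libraries, and the groups overlapped (two-sided exact permutation test, p = 1). Signal per covered base was 5.65 and 6.23 in Epi/FB:dnAP-1 libraries, against 6.30 and 6.53 in control libraries. Over the whole lists it was likewise lower in Epi/FB:dnAP-1, with 7.65 and 7.64, against 8.66 and 8.43 in control lists. The highest maximum in the window was 76.8 and 85.0 in Epi/FB:dnAP-1 libraries, against 69.3 and 70.4 in control libraries. This last measure was higher in both Epi/FB:dnAP-1 libraries, with a difference of 11.1 (two-sided exact permutation test, p = 0.333, which is this design's minimum). It mixed 2 sites, since the maximum of Epi/FB:dnAP-1 replicate 2 lay in the site 61.2 kb above the OCR and the others in the site 47.1 kb below it. At the latter site the groups overlapped, with 76.8 and 59.2 in Epi/FB:dnAP-1 libraries, against 69.3 and 70.4 in control libraries. How many windows separate in this measure was not computed. In a window of 50 kb on either side the difference in the highest maximum was -1.84, so its direction turned.

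**Figure D2:**
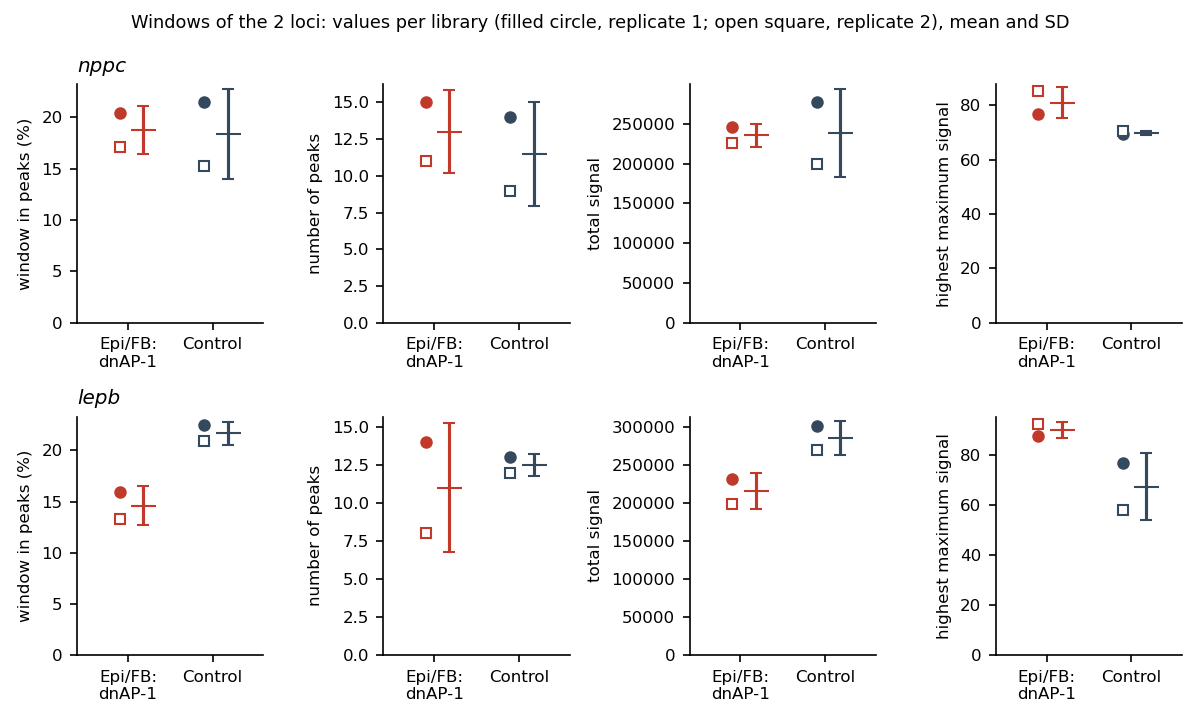
Covered share of the window (%), number of peaks, total signal and highest maximum signal (scaled coverage) at nppc (upper row) and lepb (lower row), with Epi/FB:dnAP-1 left of control in each panel, 1 point per library (filled circle, replicate 1; open square, replicate 2) and a line with bars for the mean and SD of 2 libraries. The groups separate in covered share and total signal at lepb, lower in Epi/FB:dnAP-1, and overlap in both at nppc. The highest maximum is higher in both Epi/FB:dnAP-1 libraries at either locus.

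Overlapping peaks of the 4 lists were merged into sites, which gave 18 sites in each window and 51678 over all sequences of the lists. At nppc 7 of 18 sites (38.9%) were called in all 4 lists, against 33.9% of all sites. A further 4 sites (22.2%) were called in 1 list, against 35.0% of all sites. The share of sites common to all lists was thus near that of the genome.

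The sites of the nppc window were followed from the OCR outwards on the higher side. The nearest site, 9.14 kb away, had peaks of 4006 and 4017 bp in Epi/FB:dnAP-1 libraries, at 38589485 to 38593490 and 38589148 to 38593164. In control libraries its peaks were 2881 and 5304 bp wide, at 38589671 to 38592551 and 38588325 to 38593628. Its maxima were 24.5 and 25.2 in Epi/FB:dnAP-1 libraries, against 17.6 and 22.1 in control libraries. The groups did not overlap in this maximum, which was higher in Epi/FB:dnAP-1 libraries by 0.33 on the log2 scale. Over all sites called in the 4 lists the maxima were higher without overlap at 54.4%, with a median difference of 0.34, and after each list was centred on its median the difference here was -0.03 and the groups overlapped. Its total signal stood at the 78.3rd and 73.1st percentiles of the Epi/FB:dnAP-1 lists, against the 59.4th and 82.0th of the control lists.

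Further out, a weak site 17.9 kb from the OCR was called in 3 lists. Epi/FB:dnAP-1 replicate 1 had a peak of 2587 bp from 38597732 to 38600318, with a maximum of 12.2 and at the 29.8th percentile. Control replicate 1 had one of 3203 bp from 38597122 to 38600324 (maximum 12.6, 39.8th percentile), and control replicate 2 one of 2429 bp from 38597369 to 38599797 (maximum 9.66, 0.293rd percentile). The last of these was among the weakest peaks of its list, and Epi/FB:dnAP-1 replicate 2 listed no peak there.

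The site 26.5 kb from the OCR was one of the strong ones. Its peaks ran from 38605661 to 38608248 (2588 bp) and from 38606474 to 38608487 (2014 bp) in Epi/FB:dnAP-1 libraries, against 38605889 to 38608893 (3005 bp) and 38605653 to 38608859 (3207 bp) in control libraries. Maxima were 41.5 and 45.6 in Epi/FB:dnAP-1 libraries, against 50.4 and 35.9 in control libraries. Percentiles of 85.5 and 75.3 in Epi/FB:dnAP-1 lists and of 82.9 and 83.1 in control lists placed it high in every list, and the groups overlapped.

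Beyond it lay sites that were called in only some lists. In Epi/FB:dnAP-1 replicate 2 alone there was a broad, low peak of 4163 bp from 38610810 to 38614972, with a maximum of 8.16 at the 15.2nd percentile. At 43.1 kb from the OCR, Epi/FB:dnAP-1 replicate 1 had a narrow peak of 1434 bp from 38622262 to 38623695 (maximum 40.1, 0.359th percentile), and control replicate 1 a wider one of 4373 bp from 38623413 to 38627785 (maximum 11.3, 57.4th percentile). These peaks shared only their edges, and the other library of each group listed none.

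A broad, low site lay 52.8 kb from the OCR. It held peaks of 3605 bp (38635870 to 38639474) and 5634 bp (38634582 to 38640215) in Epi/FB:dnAP-1 libraries, against 4302 bp (38632022 to 38636323) and 2060 bp (38636777 to 38638836) in control libraries. The 2 control peaks did not overlap each other, and the merging joined them through the Epi/FB:dnAP-1 peaks. Their maxima lay 55563 and 58826 bp from the OCR, against 59321 and 59422 bp in Epi/FB:dnAP-1 libraries. The maxima were 9.52 and 8.16 in Epi/FB:dnAP-1 libraries, against 10.1 and 11.04 in control libraries. This was the only shared nppc site whose maxima were lower in both Epi/FB:dnAP-1 libraries on the deposited scale, and these maxima were not all at the same place. Its percentiles were 33.9 and 41.2 in Epi/FB:dnAP-1 lists, against 15.7 and 8.04 in control lists, and so ran the other way. The total signals behind these percentiles overlapped, with 10248 and 14379 in Epi/FB:dnAP-1 libraries, against 14283 and 10978 in control libraries.

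A site 61.2 kb from the OCR had the largest difference in maximum of the nppc window on the deposited scale. Its peaks ran from 38642539 to 38646273 (3735 bp) and from 38640642 to 38646244 (5603 bp) in Epi/FB:dnAP-1 libraries, against 38643215 to 38645670 (2456 bp) and 38640404 to 38646241 (5838 bp) in control libraries. Maxima of 66.0 and 85.0 in Epi/FB:dnAP-1 libraries stood against 46.6 and 37.3 in control libraries. The groups did not overlap, and the difference was 0.85 on the log2 scale, at the 92.7th percentile of the sites called in all 4 lists. After centring it was 0.49, against -0.62 at the site 52.8 kb from the OCR. By total signal the peak stood at the 87.0th and 91.5th percentiles of the Epi/FB:dnAP-1 lists, against the 62.3rd and 90.2nd of the control lists.

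The outer part of the higher side held 3 weaker sites. The first, 69.0 kb away, had peaks from 38649272 to 38651875 (2604 bp) and from 38648207 to 38651831 (3625 bp) in Epi/FB:dnAP-1 libraries, against 38650148 to 38652740 (2593 bp) in control replicate 1. Their maxima were 15.0 and 13.6 in Epi/FB:dnAP-1 libraries, against 16.4 in control replicate 1, at the 44.4th and 35.1st percentiles against the 9.23rd. The same site thus ranked near the middle of both Epi/FB:dnAP-1 lists and near the lower end of the control list that held it. Its total signal was nonetheless highest in control replicate 1, at 13700, against 11747 and 13205 in Epi/FB:dnAP-1 libraries. The weakest peak listed for control replicate 1 reached 12993, against 7490 and 9203 in Epi/FB:dnAP-1 libraries. A peak from 38659270 to 38661888 (2619 bp, maximum 8.16, 10.3rd percentile) was in Epi/FB:dnAP-1 replicate 1 alone. At the edge of the window, Epi/FB:dnAP-1 replicate 1 had a peak from 38676782 to 38681121 (4340 bp, maximum 7.48, 51.6th percentile) and control replicate 1 one from 38676497 to 38680087 (3591 bp, maximum 11.3, 50.8th percentile).

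On the lower side, the 22.9 kb next to the site of the OCR held no peak in any list. The first site below this gap, 24.5 kb from the OCR, was the only one in either window that was called in both libraries of one group and in neither of the other. Its Epi/FB:dnAP-1 peaks ran from 38552770 to 38554501 (1732 bp) and from 38552653 to 38554501 (1849 bp), with maxima of 21.8 and 21.1 at the 43.8th and 16.2nd percentiles. Their total signals of 11666 and 10653 were below the weakest peak listed for control replicate 1 (12993) and above that of control replicate 2 (10480). Over all sites, 7.64% were called in both Epi/FB:dnAP-1 lists only, and 3.04% in both control lists only, so 1 of 18 and 0 of 18 at nppc were near the background.

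Next to it lay a broad, low site that replicate 1 of each group listed. Epi/FB:dnAP-1 replicate 1 had a peak from 38546974 to 38551417 (4444 bp, maximum 8.16, 46.8th percentile), and control replicate 1 one from 38545585 to 38549407 (3823 bp, maximum 11.3, 55.3rd percentile). This site did not distinguish the groups.

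The peak 47.1 kb below the OCR was the tallest of the whole window in Epi/FB:dnAP-1 replicate 1 and both control libraries. It ran from 38530077 to 38531644 (1568 bp) and from 38529981 to 38531292 (1312 bp) in Epi/FB:dnAP-1 libraries, against 38529804 to 38531862 (2059 bp) and 38526894 to 38531280 (4387 bp) in control libraries. Maxima were 76.8 and 59.2 in Epi/FB:dnAP-1 libraries, against 69.3 and 70.4 in control libraries, at the 77.7th and 53.3rd percentiles against the 56.8th and 84.0th. The peak was narrower in both Epi/FB:dnAP-1 libraries, while its maxima overlapped between the groups.

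A narrow site 60.0 kb below the OCR was called in 3 lists. Its peaks ran from 38516266 to 38517250 (985 bp) and from 38516222 to 38517249 (1028 bp) in Epi/FB:dnAP-1 libraries, against 38516167 to 38518983 (2817 bp) in control replicate 1. Maxima were 27.9 and 33.3 in Epi/FB:dnAP-1 libraries, against 30.2 in control replicate 1, at the 41.1st and 39.0th percentiles against the 43.3rd. Height and rank were alike in the 3 libraries that listed it, and the control peak was the widest.

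Single control lists held the next sites, from 38500103 to 38504380 in control replicate 1 (4278 bp, maximum 10.1, 24.9th percentile) and from 38491721 to 38493684 in control replicate 2 (1964 bp, maximum 13.8, 18.9th percentile). At the lower edge, 98.2 kb from the OCR, all 4 lists had a peak again. It ran from 38478425 to 38480806 (2382 bp) and from 38477173 to 38480634 (3462 bp) in Epi/FB:dnAP-1 libraries, against 38478797 to 38480820 (2024 bp) and 38479255 to 38480665 (1411 bp) in control libraries. Maxima were 46.9 and 46.9 in Epi/FB:dnAP-1 libraries, against 49.1 and 35.9 in control libraries, at the 67.8th and 63.4th percentiles against the 51.9th and 53.4th. Its rank was higher in both Epi/FB:dnAP-1 lists, while its maxima overlapped. The total signals behind these ranks also overlapped, with 18177 and 21755 in Epi/FB:dnAP-1 libraries, against 19772 and 16629 in control libraries. After centring, its log2 maxima were lower in both Epi/FB:dnAP-1 libraries, at 0.30 and 0.33, against 0.64 and 0.38 in control libraries.

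**Figure D3:**
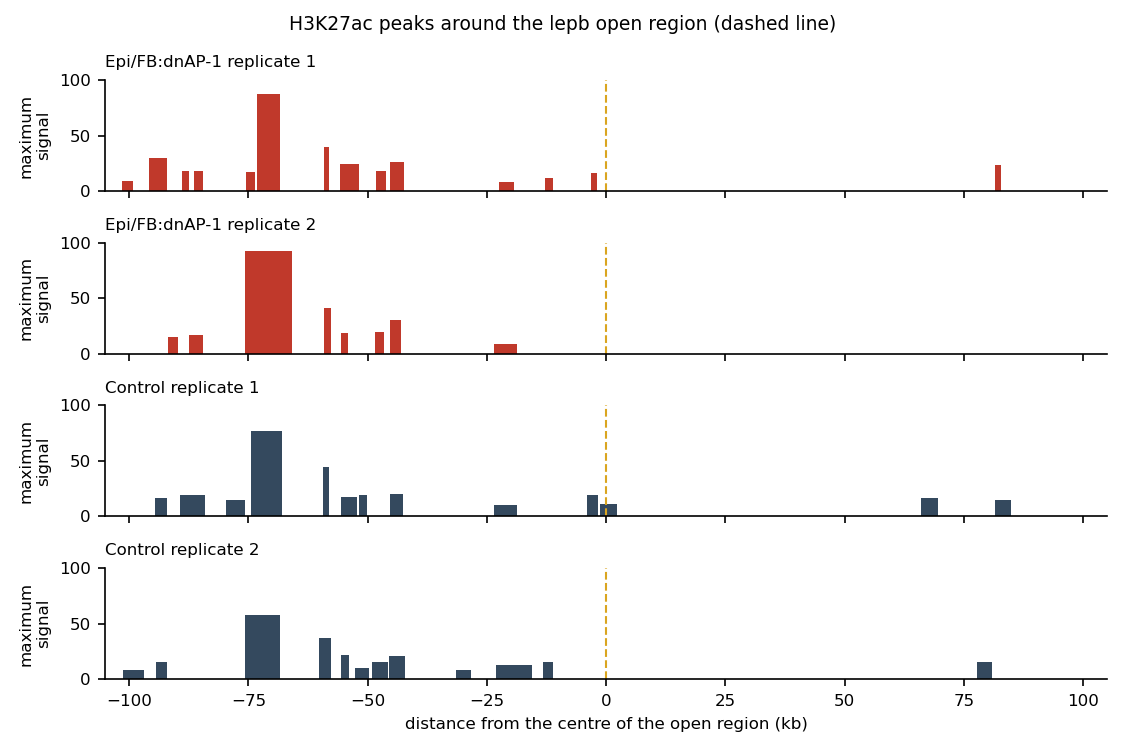
H3K27ac peaks in the lepb window by library, with the distance from the centre of the OCR (kb) on the x axis and the maximum signal of each peak (scaled coverage) as its height, Epi/FB:dnAP-1 in red above control in dark blue. Nearly all peaks lie on the lower side, the tallest about 70 kb from the OCR in every library, and only control replicate 1 has a peak on the dashed line.

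At lepb the OCR lay within 1 peak, which ran from 19007511 to 19011001 (3491 bp) in control replicate 1. Its maximum was 11.3 and its total signal of 15703 stood at the 29.0th percentile of that list. The peak nearest to the OCR was 1.75 and 18.6 kb away in Epi/FB:dnAP-1 libraries, against 0 and 11.1 kb in control libraries. Since a single control list held the peak, its absence from both Epi/FB:dnAP-1 lists was shared by control replicate 2. The total signal of 15703 was above the weakest peak listed in each of the other 3 libraries.

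Beside it, 1.52 kb from the OCR, lay a site that replicate 1 of each group called. Epi/FB:dnAP-1 replicate 1 had a peak from 19005573 to 19006855 (1283 bp, maximum 16.3, 6.60th percentile), and control replicate 1 one from 19004774 to 19007077 (2304 bp, maximum 18.9, 16.4th percentile). Both were weak in their lists. Within 25 kb of the OCR the covered share averaged 10.9% in Epi/FB:dnAP-1 libraries and 20.1% in control libraries. The difference was -9.17 percentage points, without overlap between the groups (two-sided exact permutation test, p = 0.333). The share of all windows of that length that separate was not computed.

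Over the whole lepb window there were 14 and 8 peaks in Epi/FB:dnAP-1 libraries, against 13 and 12 in control libraries, so the numbers overlapped (two-sided exact permutation test, p = 1). They covered 31.9 and 26.6 kb in Epi/FB:dnAP-1 libraries, against 44.97 and 41.8 kb in control libraries. The mean covered share was 14.6 ± 1.898% in Epi/FB:dnAP-1 libraries and 21.7 ± 1.12% in control libraries (SD, n = 2 each), a difference of -7.07 percentage points that was larger than the spread between replicates (two-sided exact permutation test, p = 0.333). The median peak was 2041 and 2176 bp wide in Epi/FB:dnAP-1 libraries, against 3345 and 3037 bp in control libraries. The groups did not overlap in this width (two-sided exact permutation test, p = 0.333), and how many windows separate in it was not computed. Over the whole lists the median widths overlapped, with 2312 and 2864 bp in Epi/FB:dnAP-1 lists, against 3156 and 2671 bp in control lists.

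Total signal at lepb came to 231898 and 198619 in Epi/FB:dnAP-1 libraries, against 301087 and 269732 in control libraries, with a difference of -70151 (two-sided exact permutation test, p = 0.333). Every maximum of a list was a whole multiple of a step, which was 0.68 and 0.68 in Epi/FB:dnAP-1 lists, against 1.26 and 1.38 in control lists. Divided by these steps, which removes the scaling of each library, the totals were 341027 and 292086 in Epi/FB:dnAP-1 libraries, against 238958 and 195458 in control libraries. The direction of this difference thus depended on the scaling by the authors, whereas the covered share does not use it. In steps, the maxima of 92.9% of all sites called in all 4 lists were higher in both Epi/FB:dnAP-1 libraries. The percentage of a list's signal that lay in its lepb peaks does not change with scaling. It was 0.0287 and 0.0228 in Epi/FB:dnAP-1 libraries, against 0.0294 and 0.0315 in control libraries. The groups did not overlap in this percentage, and how many windows separate in it was not computed.

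Signal per covered base was 6.96 and 7.48 in Epi/FB:dnAP-1 libraries, against 6.70 and 6.28 in control libraries. The highest maximum was 87.7 and 92.5 in Epi/FB:dnAP-1 libraries, against 76.9 and 58.0 in control libraries. Both measures were higher in both Epi/FB:dnAP-1 libraries (two-sided exact permutation test for each, p = 0.333). How many windows separate in them was not computed. Over the whole lists signal per covered base ran the other way, with 7.65 and 7.64 in Epi/FB:dnAP-1 lists, against 8.66 and 8.43 in control lists. The site that gave the highest maximum overlapped between the groups after centring, with a difference of 0.08 on the log2 scale.

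The lepb peaks were unevenly placed around the OCR. On the lower side 30.7% and 26.6% of the 100 kb lay in peaks in Epi/FB:dnAP-1 libraries, against 35.6% and 38.8% in control libraries. On the higher side the shares were 1.22% and 0% in Epi/FB:dnAP-1 libraries, against 9.12% and 2.97% in control libraries. The groups did not overlap on either side, but the share of all 100 kb windows that separate was not computed. A stretch of 63.7 kb on the higher side, from 19011002 to 19074672, held no peak in any list. It began where the control replicate 1 peak over the OCR ended. At nppc the order of the sides was the opposite, with 12.1% and 7.45% of the lower side in Epi/FB:dnAP-1 libraries, against 15.4% and 9.38% in control libraries, and 28.7% and 26.7% of the higher side in Epi/FB:dnAP-1 libraries, against 27.4% and 20.9% in control libraries.

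Of the 18 lepb sites, 5 (27.8%) were called in all 4 lists, against 33.9% of all sites, and 6 (33.3%) in 1 list, against 35.0%. No lepb site was called in both lists of one group only, against 7.64% of all sites for Epi/FB:dnAP-1 and 3.04% for control. The site with the most signal lay 65.9 kb below the OCR. Its peak ran from 18935585 to 18940368 (4784 bp) in Epi/FB:dnAP-1 replicate 1 and from 18933090 to 18942748 (9659 bp) in Epi/FB:dnAP-1 replicate 2, against 18934220 to 18940794 (6575 bp) and 18933070 to 18940281 (7212 bp) in control libraries. A separate peak lay beside it in Epi/FB:dnAP-1 replicate 1, from 18933102 to 18935121 (2020 bp, maximum 17.0, 35.8th percentile), and the merging placed it in the same site. The main peak stood at the 98.5th and 98.4th percentiles of the Epi/FB:dnAP-1 lists, against the 97.6th and 98.9th of the control lists, and so was among the strongest of every library.

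Maxima of this peak were the highest of the window, 87.7 and 92.5 in Epi/FB:dnAP-1 libraries, against 76.9 and 58.0 in control libraries. It held 33.6% and 49.9% of the signal of the window in Epi/FB:dnAP-1 libraries, against 27.5% and 34.4% in control libraries. Its own total came to 77899 and 99091 in Epi/FB:dnAP-1 libraries, against 82665 and 92699 in control libraries. The groups overlapped in that total on the deposited scale.

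A shared site 57.5 kb below the OCR was narrow. Its peaks ran from 18949580 to 18950624 (1045 bp) and from 18949581 to 18951071 (1491 bp) in Epi/FB:dnAP-1 libraries, against 18949299 to 18950641 (1343 bp) and 18948580 to 18951000 (2421 bp) in control libraries. Maxima were 40.1 and 40.8 in Epi/FB:dnAP-1 libraries, against 44.1 and 37.3 in control libraries, at the 58.3rd and 49.6th percentiles against the 47.2nd and 53.0th. Neither measure separated the groups.

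A site 49.5 kb below the OCR was a single peak in each Epi/FB:dnAP-1 library, from 18952977 to 18956984 (4008 bp) and from 18953175 to 18954643 (1469 bp), with maxima of 24.5 and 19.0 at the 69.2nd and 37.9th percentiles. Each control library had a pair of peaks there. In control replicate 1 they ran from 18953182 to 18956469 (3288 bp, maximum 17.6, 49.7th percentile) and from 18956879 to 18958527 (1649 bp, maximum 18.9, 5.29th percentile). In control replicate 2 they ran from 18953055 to 18954703 (1649 bp, maximum 22.1, 49.8th percentile) and from 18956089 to 18959059 (2971 bp, maximum 9.66, 14.9th percentile). The second peak of the pair, farther from the strongest site, was the part that no Epi/FB:dnAP-1 list held as a peak of its own.

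At 45.7 kb, a site was called in both Epi/FB:dnAP-1 libraries, from 18960443 to 18962503 (2061 bp, maximum 18.4, 28.9th percentile) and from 18960302 to 18962150 (1849 bp, maximum 19.7, 20.6th percentile). Control replicate 2 had it from 18959707 to 18962926 (3220 bp, maximum 15.2, 51.8th percentile), and control replicate 1 listed no peak there. Both Epi/FB:dnAP-1 maxima were above that of the control list that held the site, and both ranks were below its rank.

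The shared site 42.1 kb below the OCR had peaks from 18963380 to 18966382 (3003 bp) and from 18963370 to 18965706 (2337 bp) in Epi/FB:dnAP-1 libraries, against 18963394 to 18966123 (2730 bp) and 18963263 to 18966492 (3230 bp) in control libraries. Maxima of 26.5 and 30.6 in Epi/FB:dnAP-1 libraries stood against 20.2 and 20.7 in control libraries, at the 71.4th and 66.9th percentiles against the 53.9th and 68.9th. The maxima did not overlap, and the difference of 0.48 on the log2 scale stood at the 64.8th percentile of the sites called in all 4 lists. It was the largest of the 5 shared lepb sites on the deposited scale. After centring it was 0.12 with overlap between the groups, against -0.75 at the site 15.4 kb below the OCR.

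Closer to the OCR, at 15.4 kb, a broad and low site was called in every list. Its peaks ran from 18986318 to 18989486 (3169 bp) and from 18985109 to 18989960 (4852 bp) in Epi/FB:dnAP-1 libraries, against 18985128 to 18989952 (4825 bp) and 18985692 to 18993171 (7480 bp) in control libraries. Maxima were 8.16 and 8.84 in Epi/FB:dnAP-1 libraries, against 10.1 and 12.4 in control libraries, at the 38.3rd and 32.6th percentiles against the 55.6th and 84.7th. Height and rank were both lower in Epi/FB:dnAP-1 libraries, and this was the shared site of the lepb window nearest to the OCR. The difference in maximum was -0.40 on the log2 scale, at the 9.58th percentile of the sites called in all 4 lists. Of those sites, 12.4% had lower maxima in both Epi/FB:dnAP-1 libraries on the deposited scale. A background for the rank was not computed.

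Between this site and the OCR, at 11.1 kb, lay a site of Epi/FB:dnAP-1 replicate 1 (18995808 to 18997469, 1662 bp, maximum 11.6, 10.6th percentile) and control replicate 2 (18995391 to 18997469, 2079 bp, maximum 15.2, 26.5th percentile). Control replicate 2 alone had a peak from 18977172 to 18980274 (3103 bp, maximum 8.28, 19.5th percentile). Neither was repeated within a group.

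The far end of the lower side held weaker sites. At 84.0 kb, Epi/FB:dnAP-1 replicate 1 had 2 narrow peaks, from 18919889 to 18921242 (1354 bp, maximum 18.4, 7.44th percentile) and from 18922352 to 18924149 (1798 bp, maximum 17.7, 27.4th percentile). Epi/FB:dnAP-1 replicate 2 had 1 peak there, from 18921218 to 18924095 (2878 bp, maximum 17.0, 26.2nd percentile), against 1 of 5252 bp in control replicate 1 from 18919321 to 18924572 (maximum 18.9, 72.2nd percentile). The control peak spanned both narrow peaks at a like height, and so ranked far higher by total signal.

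Another of these sites, 91.9 kb away, was listed in Epi/FB:dnAP-1 replicate 1 from 18912896 to 18916570 (3675 bp, maximum 29.9, 69.8th percentile). In control libraries it ran from 18914037 to 18916715 (2679 bp, maximum 16.4, 6.11th percentile) and from 18914277 to 18916563 (2287 bp, maximum 15.2, 20.7th percentile). It was strongest in the Epi/FB:dnAP-1 library that listed it. Next to it, Epi/FB:dnAP-1 replicate 2 alone had a peak from 18916890 to 18918904 (2015 bp, maximum 15.0, 9.90th percentile), and control replicate 1 alone one from 18929017 to 18932891 (3875 bp, maximum 15.1, 62.0th percentile).

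The site at the lower edge of the window was in Epi/FB:dnAP-1 replicate 1 from 18907212 to 18909441 (2230 bp, maximum 8.84, 19.5th percentile) and in control replicate 2 from 18907438 to 18911782 (4345 bp, maximum 8.28, 46.5th percentile). On the higher side, where the window was nearly empty, 3 sites lay beyond 65 kb. Epi/FB:dnAP-1 replicate 1 had 1 peak, from 19090201 to 19091420 (1220 bp, maximum 23.8, 11.1st percentile), and Epi/FB:dnAP-1 replicate 2 had none. Control replicate 1 had peaks from 19074673 to 19078283 (3611 bp, maximum 16.4, 25.4th percentile) and from 19090224 to 19093568 (3345 bp, maximum 15.1, 35.5th percentile), and control replicate 2 had one from 19086565 to 19089532 (2968 bp, maximum 15.2, 18.3rd percentile).

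**Figure D4:**
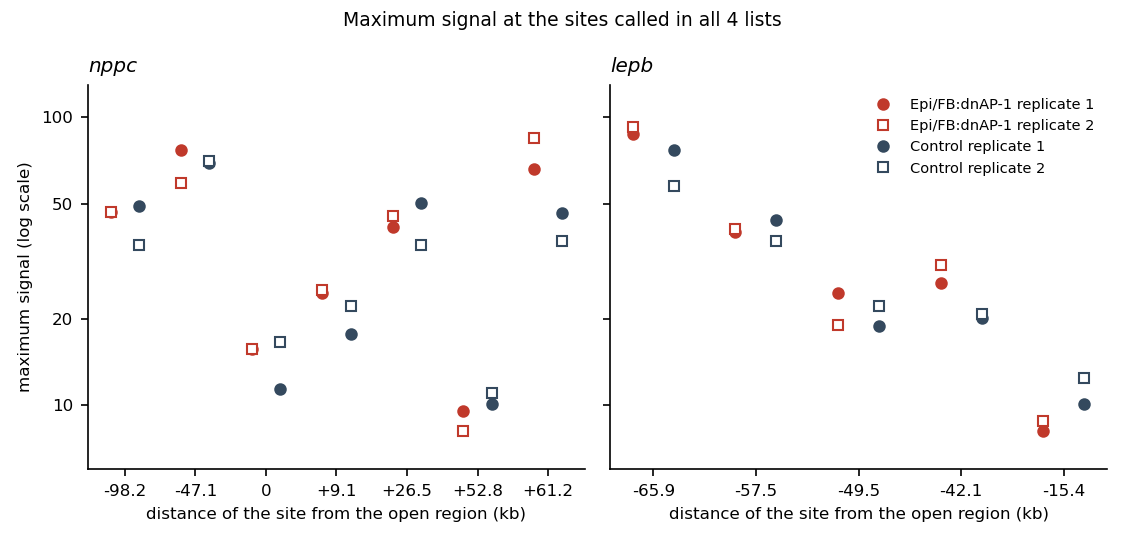
Maximum signal (scaled coverage, log axis) at the 7 nppc sites and 5 lepb sites called in all 4 lists, ordered by distance from the OCR (kb, negative towards lower coordinates), with Epi/FB:dnAP-1 points in red left of control points in dark blue. The groups separate upwards at 2 sites and downwards at 1 site in each window.

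Heights were compared at the 12 sites that all 4 lists shared. On the deposited scale the maxima were higher in both Epi/FB:dnAP-1 libraries at 2 of 7 nppc sites and 2 of 5 lepb sites, against a background of 54.4% of the 17511 sites called in all lists. They were lower in both Epi/FB:dnAP-1 libraries at 1 of 7 nppc sites and 1 of 5 lepb sites, against a background of 12.4%. The median log2 difference was 0.16 over the nppc sites and 0.08 over the lepb sites, against 0.34 over all shared sites. The median over both windows was thus below that of all shared sites, over few sites.

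Because the 2 groups of lists differed in overall height, the maxima were also centred, by subtracting from each log2 maximum the median of its list over all shared sites. After centring, 4 of 7 nppc sites and 2 of 5 lepb sites were lower in both Epi/FB:dnAP-1 libraries, against a background of 29.8%. Of the nppc sites 1 was higher, that 61.2 kb above the OCR, and of the lepb sites 0, against a background of 24.5%. The centred differences lay between -0.62 and 0.49 at nppc and between -0.75 and 0.12 at lepb, on the log2 scale, and the 5th and 95th percentiles over all shared sites were -1.03 and 0.56. All 12 sites were within this range.

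The groups separated in the same direction as deposited and after centring at 3 of the 12 sites. The share of all shared sites that did so was not computed, so this count has no background. The nppc site 61.2 kb above the OCR was higher in both Epi/FB:dnAP-1 libraries, and the nppc site 52.8 kb above the OCR and the lepb site 15.4 kb below it were lower. At the nppc site 52.8 kb above the OCR the control peaks did not overlap each other, so its maxima were not all at the same place. Divided by the step of each list, the maxima of all 12 were higher in both Epi/FB:dnAP-1 libraries, as were those of 92.9% of all shared sites, so the direction at the 2 lower sites turned with the scaling.

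The lists of the 2 groups were compared base by base. At nppc the union of the Epi/FB:dnAP-1 lists covered 51.0 kb and that of the control lists 57.2 kb, and they shared 34.5 kb, 67.5% of the Epi/FB:dnAP-1 bases and 60.2% of the control bases. At lepb the union covered 40.2 kb in Epi/FB:dnAP-1 libraries and 66.5 kb in control libraries, with 34.9 kb shared, 86.8% of the Epi/FB:dnAP-1 bases and 52.4% of the control bases. The Epi/FB:dnAP-1 peaks of the lepb window thus lay mostly within control peaks, and the control peaks reached beyond them. As the shared bases are the same for both groups, the larger union has the lower share by construction. These shares were not computed for other windows.

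Bases covered in one group only came to 16.6 kb in Epi/FB:dnAP-1 lists and 22.8 kb in control lists at nppc. At lepb they came to 5.30 kb in Epi/FB:dnAP-1 lists and 31.7 kb in control lists, and no other windows were measured for such bases. Few of these bases were repeated, since those in both lists of one group and in neither list of the other came to 3.70 kb in Epi/FB:dnAP-1 libraries and 0.912 kb in control libraries at nppc, and to 0 kb in Epi/FB:dnAP-1 libraries and 1.82 kb in control libraries at lepb. All 4 lists covered 12.1 kb of the nppc window and 13.6 kb of the lepb window, and no list covered 63.1% and 64.1% of them.

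The Jaccard index, the bases covered in both groups over those covered in either, was 0.467 at nppc and 0.486 at lepb. Windows of equal length laid end to end had a median index of 0.411 for the nppc length and 0.410 for the lepb length. Among the 6326 such windows with an index, nppc stood at the 61.4th percentile. Among 6321 for the lepb length, lepb stood at the 65.2nd. Between single libraries of different groups the index lay between 0.286 and 0.439 at nppc and between 0.365 and 0.463 at lepb. Within a group it was 0.476 for the Epi/FB:dnAP-1 pair and 0.285 for the control pair at nppc, and 0.455 for the Epi/FB:dnAP-1 pair and 0.304 for the control pair at lepb. The control pair thus had the lowest index of all 6 pairs at either locus, and the Epi/FB:dnAP-1 pair the highest at nppc. At lepb 2 of the 4 pairs from different groups exceeded the Epi/FB:dnAP-1 pair, with 0.459 and 0.463.

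**Figure D5:**
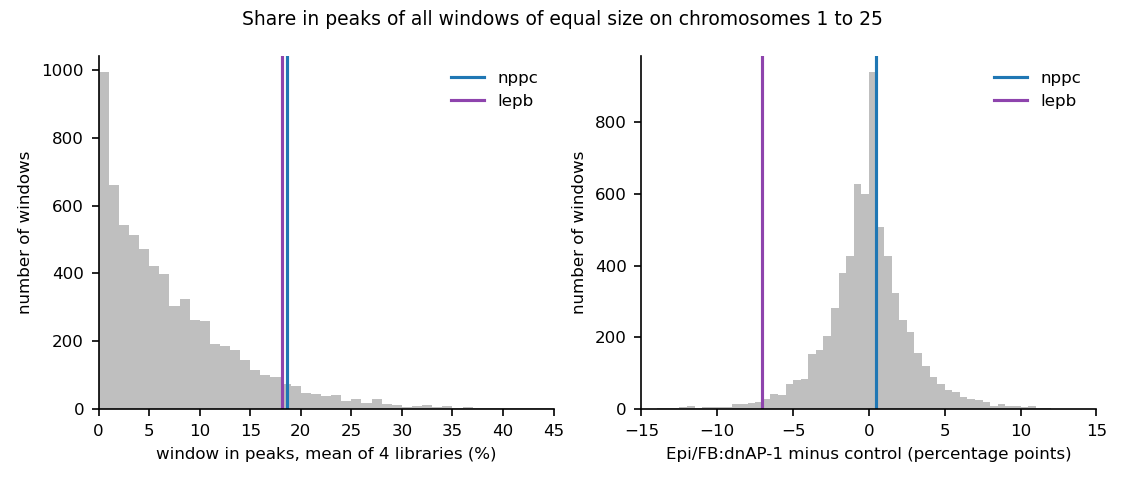
Number of windows by covered share (%, mean of the 4 libraries, left) and by the difference in covered share (Epi/FB:dnAP-1 minus control, percentage points, right), over 6702 windows of the length of the nppc window laid end to end on chromosomes 1 to 25, with lines at the nppc and lepb windows. Both loci lie in the upper tail of covered share, nppc near the middle of the differences and lepb in the lower tail.

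The 2 loci were set beside all windows of equal length laid end to end on chromosomes 1 to 25, 6702 for nppc and 6700 for lepb, as a census with no test. Both were high in covered share, while signal per covered base at both loci was below that of the whole list in every library. The mean covered share over the 4 libraries, with a median over the windows of 5.41% for the nppc length and 5.34% for the lepb length, was lower in 92.5% of windows than at nppc and in 92.0% of windows than at lepb. By library the nppc window exceeded 94.7% and 88.4% of windows in Epi/FB:dnAP-1 libraries, against 93.3% and 89.5% in control libraries. The lepb window exceeded 89.7% and 81.0% of windows in Epi/FB:dnAP-1 libraries, against 94.2% and 95.7% in control libraries.

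The difference in covered share at nppc, 0.44 percentage points, was above that of 62.7% of windows. The difference of -7.07 percentage points at lepb was above that of 1.87% of windows. Covered shares lower in both Epi/FB:dnAP-1 libraries than in both control libraries occurred in 19.5% of windows, and higher ones in 18.3%. The loci were also set beside the windows whose mean covered share was within 2 percentage points of their own, an alternative chosen after seeing the data. Among 321 such windows the lepb difference was above that of 3.43%, and among 302 the nppc difference was above that of 48.0%.

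Windows on chromosome 4 differed from those of the genome. Their median difference was -2.39 percentage points, and in 44.2% of its 389 windows the covered share was lower in both Epi/FB:dnAP-1 libraries. Among them the difference at lepb was above that of 14.4%. Among the 49 windows within 5 Mb of the lepb OCR, whose median difference was -1.49 percentage points, it was above that of 2.04%. In 28.6% of these 49 windows the covered share was lower in both Epi/FB:dnAP-1 libraries. On chromosome 22 the nppc difference was above that of 63.1% of 195 windows. The part of the difference at lepb that goes with its chromosome was not tested.

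For orientation, the gene table of another assembly, GRCz12tu, was used for the names of neighbouring genes and for no position. There nppc lies between si:ch211-126j24.1 and alpi.1, and lepb between prrt4b and si:dkey-21o22.2, with impdh1b next after prrt4b and snd1 on the other side. The peaks were not assigned to genes, promoters, exons or introns, as an annotation of GRCz11 was not used here.

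Receptors and effectors of the natriuretic peptide pathway were looked up in the same supplementary table, which was used only in part. Of 7 genes listed, 2 had OCRs there, npr3, which encodes the clearance receptor, and prkg2, which encodes a cGMP-dependent kinase. None of their 3 OCRs lay under a peak in any list. Both prkg2 OCRs had a peak within 10 kb in all 4 lists, while the npr3 OCR had none within 10 kb. Over the 1999 OCRs of the rows used, 68.7% were under a peak in no list and 7.35% were under one in all 4, as the nppc OCR was. Since the table was used in part, these shares are a description.

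Of 9 leptin and JAK-STAT genes, 6 had OCRs in the table, and none of the 7 OCRs lay under a peak in any list, against the 68.7% of all OCRs used. They belonged to lepa (a leptin paralogue), lepr (the leptin receptor), jak1, stat1a, socs1b and socs3b (suppressors of cytokine signalling). Peaks were scarce around the receptor. Over 100 kb on either side of its OCRs the covered share lay between 0 and 2.65%, against 13.3% to 22.5% at lepb. The windows of lepa and jak1 held no peak. Around socs3b the share was 21.5% and 22.2% in Epi/FB:dnAP-1 libraries, against 31.0% and 24.3% in control libraries. Around stat1a it was 13.3% and 16.3% in Epi/FB:dnAP-1 libraries, against 13.0% and 14.2% in control libraries, and around socs1b 3.58% and 2.59%, against 1.69% and 1.96%. The groups thus separated downwards at socs3b, upwards at socs1b and overlapped at stat1a. Of all windows of the nppc length, 19.5% separated downwards and 18.3% upwards.

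All 11 genes of other secreted ligands had OCRs, 18 in number, of which 10 lay under a peak in no list. Counting 1 OCR that was under a peak in all 4 lists, 3 were under one in both Epi/FB:dnAP-1 lists, against 14.5% of all OCRs used, and 1 in both control lists, against 9.15%. A further 4, of vegfd, angpt1 and tgfb3, were under a peak in control replicate 1 alone, as the lepb OCR was, against 4.00% of all OCRs used. The one in all 4 lists was an OCR of fgf7, a fibroblast growth factor, with maxima of 15.0 and 10.2 in Epi/FB:dnAP-1 libraries, against 15.1 and 16.6 in control libraries. These were close to the maxima at the nppc OCR. An OCR of vegfd, a vascular growth factor, had maxima of 21.8 and 13.6 in Epi/FB:dnAP-1 libraries, against 22.1 in control replicate 2 and no peak in control replicate 1. An OCR of apln, which encodes the peptide apelin, had 23.8 and 16.3 in Epi/FB:dnAP-1 libraries, against 21.4 in control replicate 1 and no peak in control replicate 2. None of the 18 was under a peak in both lists of one group and in neither of the other, against 3.30% of all OCRs used.

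The genes of the table whose windows were most like the 2 loci in covered share over the 4 libraries, by Euclidean distance in percentage points, were psmb11b (2.02), mfsd11 (2.62) and copz1 (3.04) for nppc, out of 1494 genes on other chromosomes. For lepb they were ttc9c (2.71), tppp3 (3.22) and srfb (3.32), out of 1483. The ttc9c window had 18.04% and 14.2% in Epi/FB:dnAP-1 libraries, against 21.6% and 19.7% in control libraries. The windows were chosen for this likeness, which is a description.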

How the data were processed

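One H3K27ac CUT&Tag peak list was deposited for each of the 2 Epi/FB:dnAP-1 libraries and the 2 control libraries. Per the paper's methods and the submitters' processing notes, the authors removed adaptors (cutadapt 2.7), mapped to GRCz11 (Bowtie2 2.2.5), dropped unmapped reads and duplicates (SAMtools 1.9, Picard), scaled coverage per library with a ChIPseqSpikeFree factor (bedtools genomecov) and called peaks with SEACR; MACS2 is also named there, but the lists have SEACR's columns. The deposited values are signal, the scaled coverage summed over a peak and its maximum, not counts of reads; scaling by the authors affects both, and the list threshold affects coverage. Positions are counted from 1.

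Windows, sites, base overlaps and the census of windows were computed with Python 3.11.15, numpy 2.4.6 and pandas 2.3.3, and exact permutation tests were run over libraries. The functions were tested on simulated data with scipy 1.17.1. Figures were drawn with matplotlib 3.10.9. The supplementary table gave OCR positions and 1999 of its rows were used, so no overlap test was run on it and shares over them are descriptions. Genes named were nppc, lepb, genes of 3 pathway lists with an OCR in the table, and the 3 genes with the most similar windows. Members and lists were chosen with earlier results of these data known. No sequences are shown, since a genome of the build was not used here. Alternatives were other window widths, list thresholds, peak widths, merging distances and scalings, a replicate block and each library left out.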

Additional observations from a re-analysis of the deposited data

How the results depend on the processing

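Direction at lepb was kept for the covered share in the 10 alternatives that moved its value. These include the runs with each library left out, which could not turn it, since both Epi/FB:dnAP-1 shares lay below both control shares. This limit also holds for total signal at lepb and the highest maximum at both loci, whose groups did not overlap. The minimum peak width removed no peak there, and the replicate block gives the same mean difference by construction. The difference in covered share at lepb was -10.5 percentage points with a common minimum of total signal, an alternative chosen after seeing the data. It was -4.90 in a window of 200 kb on either side. With each library left out it lay between -8.41 and -5.72 percentage points. The lepb total signal difference lay between -86791 and -53511 with each library left out, and turned to 99348 when values were divided by the step of each list. The highest maximum at lepb turned to -4.46 within 25 kb, and lay between 13.2 and 32.1 with each library left out. The number of lepb peaks differed by between -4.5 and 1.5 with each library left out, and turned to 1.5 without Epi/FB:dnAP-1 replicate 2.

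At nppc no direction was firm. The difference in covered share turned to -0.50 within 25 kb, to -2.91 in the top 50% of each list and to -4.44 with the common minimum, and lay between -2.67 and 3.55 with each library left out. Total signal turned to 1921 within 25 kb, 13380 within 200 kb and 163883 in steps, and lay between -42131 and 36094 with each library left out. The highest maximum turned to -1.84 within 50 kb and lay between 7 and 15.2 with each library left out. The number of peaks turned to -1 in the top 50% of each list and to -2 with the common minimum, and lay between -1 and 4 with each library left out.

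The Jaccard index at nppc moved to 0.779 within 25 kb and to 0.609 in the top 50% of each list, and lay between 0.366 and 0.450 with each library left out. At lepb it moved to 0.271 in the top 50% of each list, 0.410 with equal numbers of peaks, 0.298 with the common minimum and 0.545 with bases in both lists of a group, and lay between 0.319 and 0.486 with each library left out. With peaks within 500 bp merged, sites called in 1 list at lepb numbered 3 instead of 6.

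Among windows of the same chromosome, the percentile of the covered share was 89.2 at nppc and 89.7 at lepb, that of the lepb difference 14.4 and that of the lepb Jaccard index 71.5. Among windows within 5 Mb, an alternative chosen after seeing the data, the covered share stood at 88.9 at nppc and 89.8 at lepb, the nppc difference at 59.3 and the Jaccard index at 72.0 at nppc and 72.9 at lepb. Among windows of like covered share, also chosen after seeing the data, the difference stood at 48.0 at nppc and 3.43 at lepb, and the Jaccard index at 27.2 at nppc and 37.7 at lepb.

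With the replicate number as a replicate block, the paired differences were the same, 0.44 percentage points at nppc and -7.07 at lepb in covered share, and the smallest p of a sign-flip test over 2 pairs is 0.5. In the log2 maxima of shared sites, same-numbered libraries did not deviate together (r = 0.04 across 17511 sites, which are not independent). This correlation does not cover the measures of the windows. In covered share, total signal and number of peaks, replicate 1 was the higher of the pair in both groups at either locus. Over the whole lists neither the number of peaks nor the covered length followed the replicate number in this way. This pattern was not tested, and the numbers were not taken as pairs. The cause of these changes was not tested. Depth is unknown, so a peak not listed is not shown to be absent.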
